A study of Mus musculus with 6 samples.

Results

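The striated muscle genes examined here were Acta1, Actc1, Myh1, Myh4, Myh6, Myl1, Myl7, Mylpf, Ckm and Mb, which are sarcomere and energy genes of the heart and of fast skeletal fibres. Each was found by its symbol, so that 10 of 10 genes were matched among the 55426 genes of an expression table from mouse abdominal aorta. The table held 6 libraries of polyA RNA from male C57BL/6J mice, 3 labelled control and 3 labelled Prdm16 knockout. The knockout animals carried Prdm16flox/flox and Myh11-CreERT2 and are called Prdm16SMKO below, and the study's legend gives Myh11-CreERT2 as the genotype of its control mice. Mice of 8 to 10 weeks of age received tamoxifen at 75 mg/kg/day by gavage for 5 days, and RNA was taken 2 weeks later. The Cre recombinase is driven by the smooth muscle promoter of Myh11 and sits on the Y chromosome, so only males were used and only cells that use this promoter were targeted. The comparison asks what the loss of the transcriptional regulator PRDM16 in vascular smooth muscle cells (VSMCs) changes in the vessel wall. The labels do not say whether a library came from a single animal, so the p-values measure the spread between these libraries.

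Striated muscle contracts through sarcomeres, in which thick filaments of myosin heavy and light chains slide along thin filaments of actin. Heart and skeletal muscle use different genes for the same parts. Acta1 encodes the skeletal alpha-actin and Actc1 the cardiac alpha-actin, Myh1 and Myh4 encode fast skeletal myosin heavy chains, Myl1 and Mylpf the light chains that pair with them, and Myh6 and Myl7 the heavy chain of the adult mouse heart and the atrial regulatory light chain. Ckm encodes the muscle creatine kinase, which buffers ATP, and Mb encodes myoglobin, which stores oxygen. VSMCs lack sarcomeres and contract with their own set, Acta2, Myh11 and the light chain Myl9.

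A CArG box, the site bound by serum response factor, lay in the 250 bases before the RefSeq start of 4 of the 10 genes, Acta1, Actc1, Myh4 and Myl7, against 1.47% of 32851 such windows in the mouse genome (RefSeq, GRCm38.p6). These windows are printed because a skeletal and a cardiac actin, a fast myosin and an atrial light chain, with different levels in these libraries, each hold a match to this motif. The matched letters differ between them. The strand of each gene is shown 5′ to 3′, with capitals marking the CArG box, the MEF2 motif and the letters TATAAA, each searched on both strands. The windows lie at chr8:123894776-123895025 (minus strand) for Acta1, chr2:114052876-114053125 (minus) for Actc1, chr11:67237562-67237811 (plus) for Myh4 and chr11:5898783-5899032 (minus) for Myl7.
Acta1: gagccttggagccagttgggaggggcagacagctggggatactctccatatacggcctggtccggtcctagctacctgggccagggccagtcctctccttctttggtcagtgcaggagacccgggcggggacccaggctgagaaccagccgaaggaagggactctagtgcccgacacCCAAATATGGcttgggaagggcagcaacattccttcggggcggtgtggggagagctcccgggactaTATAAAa
Actc1: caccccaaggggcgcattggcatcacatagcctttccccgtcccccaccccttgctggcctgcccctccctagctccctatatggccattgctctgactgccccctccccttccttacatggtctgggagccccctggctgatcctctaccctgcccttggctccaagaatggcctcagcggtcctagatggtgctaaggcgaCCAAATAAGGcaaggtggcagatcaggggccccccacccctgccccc
Myh4: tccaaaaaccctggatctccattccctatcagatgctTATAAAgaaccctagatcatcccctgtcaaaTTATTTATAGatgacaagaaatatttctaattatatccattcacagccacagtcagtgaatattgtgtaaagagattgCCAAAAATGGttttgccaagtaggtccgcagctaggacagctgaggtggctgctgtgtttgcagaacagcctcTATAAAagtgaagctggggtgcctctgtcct
Myl7: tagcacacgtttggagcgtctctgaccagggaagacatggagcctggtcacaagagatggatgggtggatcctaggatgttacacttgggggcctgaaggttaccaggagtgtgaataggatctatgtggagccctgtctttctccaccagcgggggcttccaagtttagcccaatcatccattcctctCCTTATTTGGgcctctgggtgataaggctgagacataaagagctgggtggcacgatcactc
The CArG box began 73 bases before the start in Acta1, 47 in Actc1, 104 in Myh4 and 61 in Myl7. The MEF2 motif lay in the windows of 2 genes, Myh1 and Myh4, against 2.92% of all windows. TATAAA was found before 4 genes, against 12.4%, and in Myh4 the MEF2 motif and a TATAAA match read from the opposite strand overlapped. The letters CANNTG of an E-box were found before 8 genes, against 66.2%. A match describes the letters only.

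The actins are close relatives, and a read of a low gene could in principle be assigned to an abundant one or the reverse. The first 60 coding bases of Actc1 and Acta1 are shown beside Acta2 (GENCODE M21 transcripts), with capitals where a base differs from Acta2.
Acta2: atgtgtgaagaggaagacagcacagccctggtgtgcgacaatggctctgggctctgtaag
Actc1: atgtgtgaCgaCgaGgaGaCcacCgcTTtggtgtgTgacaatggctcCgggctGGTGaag
Acta1: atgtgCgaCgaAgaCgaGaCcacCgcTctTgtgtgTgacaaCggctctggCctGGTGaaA
Actc1 differed from Acta2 at 14 of these 60 bases and Acta1 at 17. Over the 1131 coding bases, identity with Acta2 was 82.6% for Actc1 and 85.4% for Acta1. The longest protein-coding transcript of each member was searched. No stretch of 151 bases, the length of a read, was identical between Acta1, Actc1, Mylpf, Myl7, Ckm or Mb and a transcript of another gene. Such stretches made up 5.43% of Myh6 (shared with Myh7), 2.41% of Myh1 (mostly with Myh2), 1.82% of Myl1 (with the pseudogene Mylf-ps) and 0.46% of Myh4, so a single read from these 4 genes could be ambiguous, and their values are less certain. Stretches of 31 bases were shared more, at 39.7% of Myh1, 32.5% of Myh6, 30.4% of Myh4, 28.4% of Myl1 and 4.45% of Acta1. A read shortened by trimming could thus be ambiguous more often.

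The members were scarce in the aorta. Levels are given in TPM, a share of all transcripts that is scaled to transcript length. By mean level over the 6 libraries, the highest were Myl1 at place 8764 of all genes and Actc1 at place 8938, followed by Ckm (9642), Mylpf (10983), Acta1 (11438), Myh4 (13038), Myh6 (14045), Myh1 (16084) and Mb (16485). Myl7 was listed at 0 TPM in every library. Summed over the 10 genes, control libraries 1, 2 and 3 had 18.68, 18.24 and 13.11 TPM, and Prdm16SMKO libraries 1, 2 and 3 had 72.56, 13.06 and 23.26 TPM. Only Prdm16SMKO library 1 stood far above the rest in this sum. Of the 8 pairs of neighbours in the order of the 9 detected genes, 0 differed by more than the SD of their difference over the 6 libraries, and Myl1 was above Actc1 in 2 of the 6. In whole tissue, fewer cells of a type and less RNA per cell cannot be told apart.

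**Figure D1:**
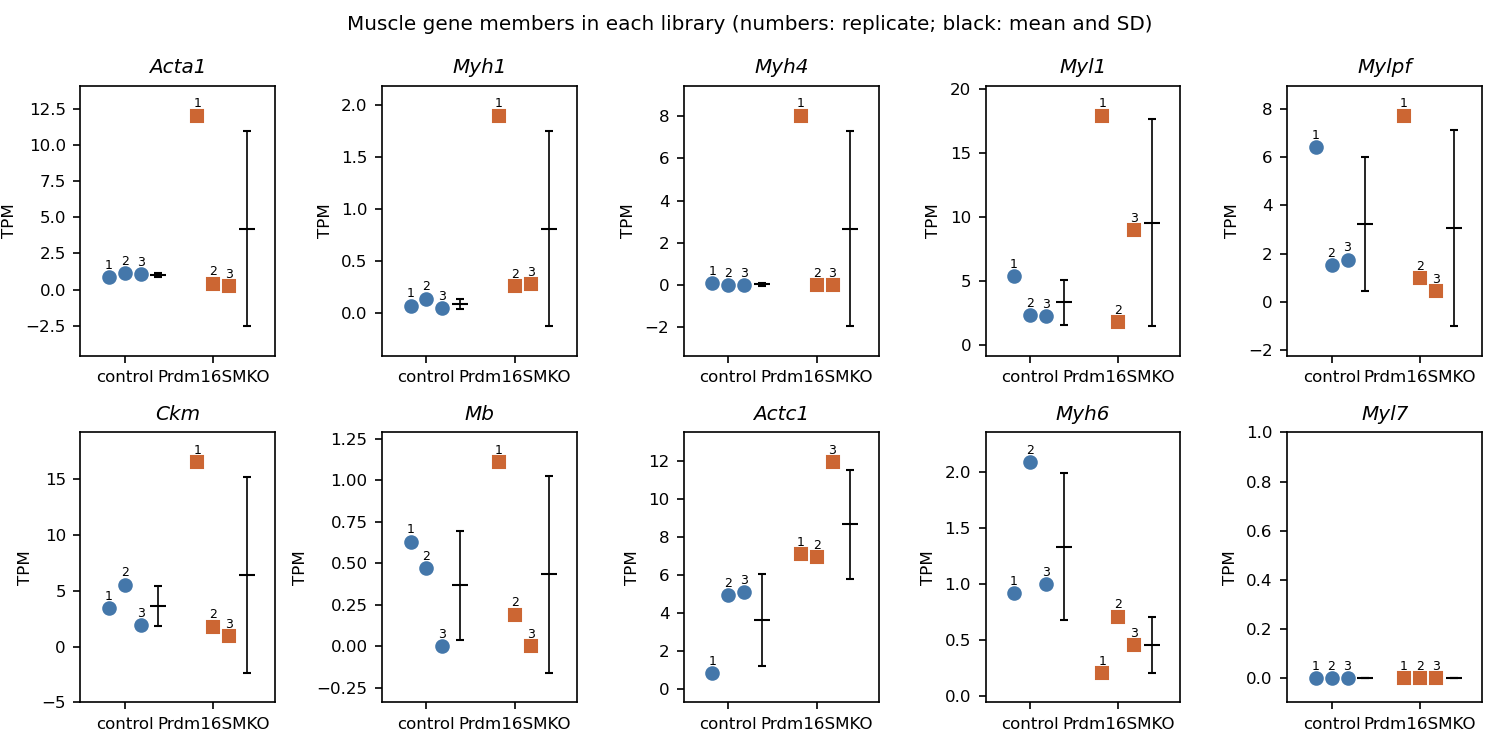
TPM of each of the 10 genes in each library, with controls as blue circles, Prdm16SMKO as orange squares, the replicate number above each point and the group mean with SD (n = 3) in black. Prdm16SMKO library 1 is the highest point for Acta1, Myh1, Myh4, Myl1, Mylpf, Ckm and Mb, whereas Actc1 and Myh6 separate the groups in opposite directions and Myl7 is at 0 throughout. Bars reach below 0 where the SD exceeds the mean.

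Some facts about the libraries bear on these values. Each held 20332 to 22100 genes above 0, no pair held identical values, and a 45S ribosomal transcript took 13.8% to 28.8% of the TPM and mitochondrial transcripts 15.8% to 27.4%. Prdm16 itself was 33.42, 36.83 and 30.77 TPM in the controls and 20.75, 27.67 and 14.77 TPM in Prdm16SMKO, a non-overlapping difference with a log2 fold change of -0.70 (SE 0.23, limma adjusted p = 0.376). The defining VSMC genes Acta2, Myh11 and Tagln were at 1488.04 TPM or above in all 6 libraries. Prdm16SMKO library 1 also had the highest summed level of the 8 listed neuron and Schwann cell genes, at 656.55 TPM against 47.58 to 227.95 TPM in the other 5, with 8 of 8 genes highest there. Prdm16SMKO library 3 had the highest sums of brown adipocyte genes, 754.78 TPM against 19.51 to 285.88 TPM, and of white adipocyte genes, 3882.58 TPM against 756.63 to 1567.79 TPM. The part of these differences in the results below was not tested.

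None of the 7 members that reached a mean of 0.5 TPM was called by limma at a Benjamini-Hochberg adjusted p under 0.05. Over all 15775 genes tested, 56 were called, or 0.355%, with 29 higher in Prdm16SMKO (0.184%) and 27 lower (0.171%). At an unadjusted p under 0.05, 2 members passed, Actc1 and Myh6, where 8.74% of all genes did. Myh6 reached the minimum only through the controls and Myh4 only through Prdm16SMKO library 1, so their directions are in part set by that minimum, and the counts and medians over the tested members are a description. Of the 7, 4 had higher means on the log scale in Prdm16SMKO and 3 lower, and their median log2 fold change was 0.42, where that of all genes tested was 0.02. Without Prdm16SMKO library 1, a setting in which Myh4 no longer reached the minimum, the median of the other 6 was -0.81, with 2 higher and 4 lower, and 4 of them (Acta1, Ckm and Mylpf lower, Actc1 higher) passed at an unadjusted p under 0.05, where 9.09% of all genes did, with 0 called. In that setting Acta1, with 0.41 and 0.21 TPM in the remaining Prdm16SMKO libraries, reached the minimum only through the controls, so its count there is a description too. Fold changes are on the scale of log2(TPM + 0.5), where the value of a gene this low depends on the added 0.5, and that of Acta1 was 0.17 with 0.1 added and 0.49 with 1 added. The untested members were Myh1 and Mb, with means below the minimum, and Myl7.

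**Figure D2:**
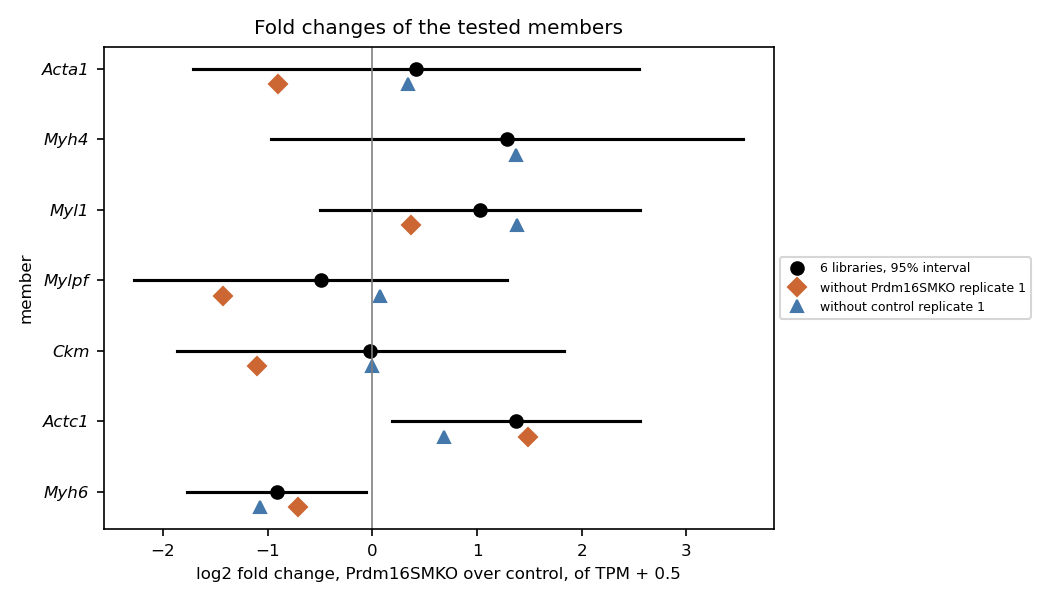
Log2 fold change of Prdm16SMKO over control for the 7 tested members (black circle, with the 95% interval of limma) and the value without Prdm16SMKO library 1 (orange diamond) or without control library 1 (blue triangle). The intervals of Acta1, Myh4, Myl1, Mylpf and Ckm cross 0, and without Prdm16SMKO library 1 Acta1 moves to -0.90 and Mylpf to -1.43.

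Fast skeletal genes were uneven between the Prdm16SMKO libraries. Acta1 (ENSMUSG00000031972, GRCm38 chr8:123891769-123894751), whose product forms the thin filament of skeletal fibres, was 0.85, 1.14 and 1.04 TPM in the controls and 12.03, 0.41 and 0.21 TPM in Prdm16SMKO. The controls were close to each other, while Prdm16SMKO library 1 lay above all of them and the other two below all of them. The group means were 1.01 ± 0.147 and 4.22 ± 6.77 TPM (SD, n = 3 each), and the log2 fold change was 0.42 (95% interval -1.71 to 2.54, limma adjusted p = 0.971). Without Prdm16SMKO library 1 it was -0.90, so the direction rests on that library.

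The fast myosin heavy chain Myh4 (ENSMUSG00000057003, chr11:67238029-67260446), typical of the fastest fibres, was 0.10, 0 and 0 TPM in the controls and 8.02, 0 and 0.01 TPM in Prdm16SMKO. It was thus present at more than traces in 1 library of 6, where it was 80.2 times the next highest value. Its log2 fold change of 1.29 (95% interval -0.97 to 3.54, limma adjusted p = 0.848) is a description only, since Myh4 reached the expression minimum through this library alone. Its neighbour on chromosome 11, Myh1 (ENSMUSG00000056328, chr11:67200052-67224575), was 0.07, 0.14 and 0.05 TPM in the controls and 1.90, 0.26 and 0.28 TPM in Prdm16SMKO. Here all Prdm16SMKO libraries lay above all controls, as for 7.02% of tested genes (exact two-sided permutation p = 0.1, the smallest that 3 against 3 can give). With its mean below the minimum Myh1 was outside the fit, and a fit without a minimum gave a log2 fold change of 0.94 (SE 0.45, limma adjusted p = 0.786).

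The light chains of the fast myosins did not move as a pair. Myl1 (ENSMUSG00000061816, chr1:66924295-66945404), the alkali light chain of fast fibres, was 5.41, 2.37 and 2.27 TPM in the controls and 17.91, 1.79 and 8.98 TPM in Prdm16SMKO. Libraries 1 and 3 of Prdm16SMKO were above all controls and library 2 below them, with a log2 fold change of 1.03 (95% interval -0.50 to 2.56, limma adjusted p = 0.797). Mylpf (ENSMUSG00000030672, chr7:127208890-127214298), the regulatory light chain, was 6.41, 1.53 and 1.74 TPM in the controls and 7.71, 0.98 and 0.43 TPM in Prdm16SMKO. Library 1 of each group was high, so the groups overlapped, and the log2 fold change was -0.49 (95% interval -2.27 to 1.29, limma adjusted p = 0.952). Myl1 per unit of Mylpf was 0.844, 1.55 and 1.3 in the controls and 2.32, 1.83 and 20.9 in Prdm16SMKO, so the 2 light chains parted most in Prdm16SMKO library 3.

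The energy genes followed the fast fibre genes in library 1 of Prdm16SMKO. Ckm (ENSMUSG00000030399, chr7:19404776-19422841) was 3.46, 5.55 and 1.91 TPM in the controls and 16.56, 1.79 and 0.92 TPM in Prdm16SMKO. One library was above all controls and the others below all of them, and the log2 fold change was -0.02 (95% interval -1.87 to 1.83, limma adjusted p = 0.998). Without Prdm16SMKO library 1 it was -1.10 (limma adjusted p = 0.437). Mb (ENSMUSG00000018893, chr15:77015487-77050670) was 0.63, 0.47 and 0 TPM in the controls and 1.11, 0.19 and 0 TPM in Prdm16SMKO, which overlap and lie near or below 1 TPM.

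Of the 9 detected members, 7 had their highest value in Prdm16SMKO library 1, or 77.8%, namely all 5 fast fibre genes and both energy genes. Of the 7 tested members 5 peaked there, Myh4 among them, which reached the expression minimum only through it. Over all tested genes this library was the highest for 19.8%. Its level was 10.6 times the next highest library for Acta1, 6.79 times for Myh1, 2.98 times for Ckm, 1.99 times for Myl1, 1.76 times for Mb and 1.20 times for Mylpf. The make-up also differed. Myh4 was 1.04 per unit of Mylpf there and 0 to 0.0233 in the other 5 libraries, whereas Ckm per unit of Mylpf was 2.15 there, within the range of 0.540 to 3.63 over the controls. Acta1 per unit of Mylpf was 1.56 there and 0.133 to 0.745 elsewhere. Control library 1, which had Mylpf at 6.41 TPM, therefore had the light chain with next to no Myh4 and no excess of Acta1.

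Other fast fibre genes were read in the same way, from a list of 25. The calcium pump Atp2a1 was 4.74 TPM in Prdm16SMKO library 1 and 0 to 0.08 TPM in the other 5, the calcium buffer Pvalb 5.36 against 0 to 0.26 TPM, the Z-disc gene Actn3 3.21 against 0.04 to 0.71 TPM, and the calcium release channel Ryr1 0.36 against 0.01 to 0.04 TPM. The fast troponin genes Tnni2, at 12.66 against 0 to 0.49 TPM, and Tnnt3, at 24.65 against 0.65 to 4.25 TPM, were also highest there. Other genes of the list did not share this peak. Mylk2, a myosin light chain kinase, was 10.37 to 19.83 TPM in the controls and 6.21 to 10.43 TPM in Prdm16SMKO. Casq1, which binds calcium in the sarcoplasmic reticulum, was 17.08 to 44.62 TPM in the controls and 24.70 to 35.39 TPM in Prdm16SMKO. Pygm, the muscle glycogen phosphorylase, was 45.79 to 71.91 and 40.24 to 68.85 TPM. In all, 11 of 24 detected genes of the list were highest in Prdm16SMKO library 1. Of 13 tested, 6 were higher and 7 lower in Prdm16SMKO with a median log2 fold change of -0.21, and limma called 0 of them. With an unadjusted limma p under 0.05, 3 of the 13 passed, where 8.74% of all genes did. Among the 6, Atp2a1, Pvalb and Actn3 reached the minimum only through Prdm16SMKO library 1, so their direction says nothing further. Without that library 10 were tested, of which 1 was higher and 9 lower, with a median of -0.51.

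**Figure D3:**
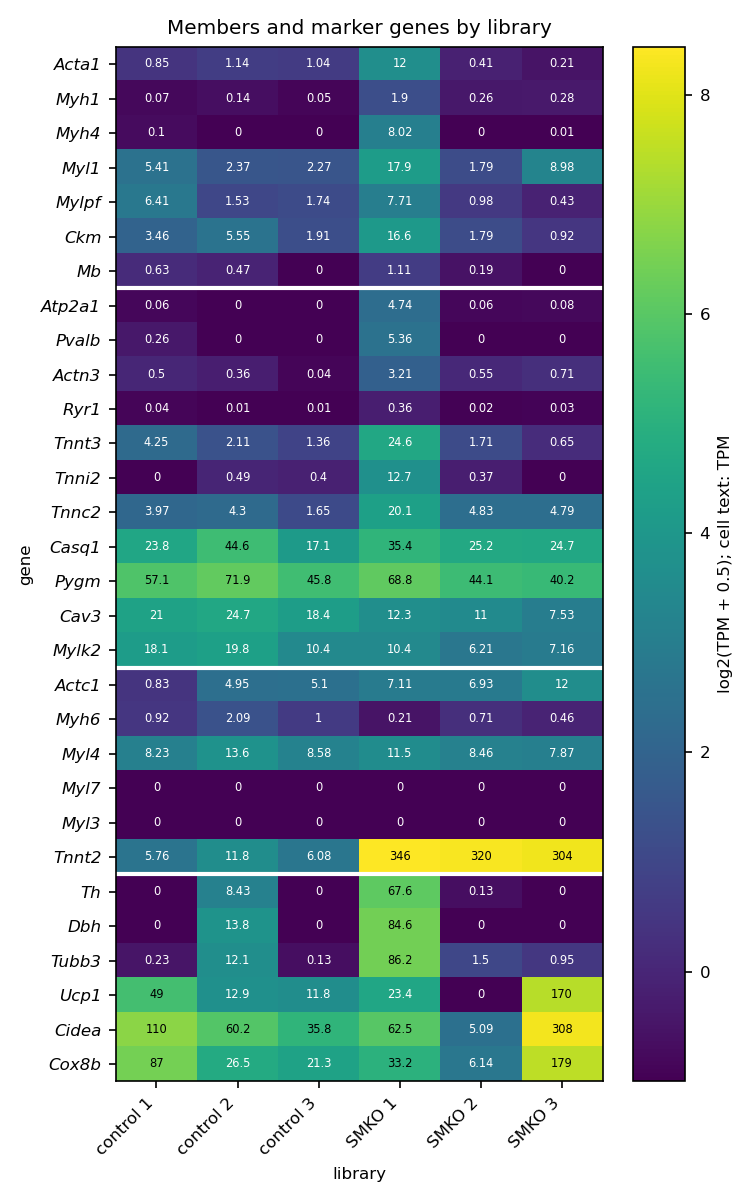
Levels of fast fibre and energy members (top block), other fast fibre genes and heart genes (the middle blocks) and neuron and brown adipocyte genes (bottom) in each library, coloured by log2(TPM + 0.5) with the TPM written in each cell and Prdm16SMKO shortened to SMKO. Acta1, Myh4, Atp2a1 and Tnni2 are bright only in Prdm16SMKO library 1, where Th, Dbh and Tubb3 also peak, while Casq1 and Pygm are at like levels throughout and Tnnt2 is bright in all 3 Prdm16SMKO libraries.

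The listed myogenic genes other than Des and Chrnb1 were at 0 or near it, and these 2 had means of 175.29 and 5.48 TPM. Of 12 listed myogenic genes 7 were detected and 5 were at 0 in all libraries, namely Myod1 and Myog, which drive muscle differentiation, Pax7 of the satellite cell, and Mymk and Mymx of myoblast fusion. The myogenic factor Myf6 was 0.09 TPM in Prdm16SMKO library 1, where the fast fibre members peaked, and 0 in the other 5. Myf5 was 0.05 TPM in Prdm16SMKO library 3 and 0 in the other 5. The 2 that were tested were Des, which VSMCs also use, with a log2 fold change of 0.51 (limma adjusted p = 0.546), and the acetylcholine receptor gene Chrnb1, with -0.26 (limma adjusted p = 0.879). Of 11 slow fibre genes, 5 were tested, 2 higher and 3 lower with a median of -0.03, and 0 were called or had an unadjusted p under 0.05 in limma. Of the 3, Tnnc1 reached the expression minimum only through the controls (mean 0.72 against 0.35 TPM), so its direction is a description. The most abundant of the 5 were Myoz2 (log2 fold change 0.40), Tnnt1 (-0.03), Myl6b (-0.34) and Casq2 (0.26), with limma adjusted p-values of 0.664 to 0.994. The slow myosin Myh7 stood at 0.05 to 0.18 TPM over the 6 libraries.

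Of the 2 tested heart members, Actc1 had a higher and Myh6 a lower mean in Prdm16SMKO, and limma called 0 of them. Actc1 (ENSMUSG00000068614, chr2:114047282-114053548), the thin filament actin of the heart, was 0.83, 4.95 and 5.10 TPM in the controls and 7.11, 6.93 and 11.97 TPM in Prdm16SMKO. All Prdm16SMKO libraries were above all controls (exact two-sided permutation p = 0.1, the smallest possible), as were 7.02% of tested genes. The means were 3.63 ± 2.42 and 8.67 ± 2.86 TPM (SD, n = 3 each) and the log2 fold change was 1.37 (SE 0.52, 95% interval 0.19 to 2.56), with a limma p of 0.0279 and an adjusted p of 0.485. The low value of control library 1 carries much of it, since without that library the log2 fold change was 0.69. Actc1 was not highest in Prdm16SMKO library 1, where the fast fibre members peaked, but in library 3, which had the most adipocyte RNA.

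Myh6 (ENSMUSG00000040752, chr14:54941921-54966927), the alpha heavy chain of the heart, was 0.92, 2.09 and 1.0 TPM in the controls and 0.21, 0.71 and 0.46 TPM in Prdm16SMKO. All Prdm16SMKO libraries were below all controls (exact two-sided permutation p = 0.1, the smallest possible), as were 5.76% of tested genes. The means were 1.34 ± 0.654 and 0.460 ± 0.250 TPM (SD, n = 3 each), with a log2 fold change of -0.91 (SE 0.37, 95% interval -1.77 to -0.06), a limma p of 0.0385 and an adjusted p of 0.534. The Prdm16SMKO mean alone is under the expression minimum, so Myh6 was tested only through its higher control values, and its p and interval are a description. Its lowest value was in Prdm16SMKO library 1. Part of its sequence is shared with Myh7, as given above. Myl7 (ENSMUSG00000020469, chr11:5896637-5898782), the atrial light chain, was at 0 in all 6 libraries, so no ratio of a member to it could be formed.

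Several genes that define heart muscle were listed at 0. Besides Myl7, the atrial gene Bmp10 was at 0 in every library, as were 4 of 8 ventricular genes, Myl3, Irx4, Lrrc10 and Nppb, and the heart transcription factor Nkx2-5. Nppa, which encodes the atrial natriuretic peptide, was 0.16 to 0.42 TPM. The 3 tested atrial genes, Dkk3, Myl4 and Myh6, had lower means in Prdm16SMKO, and limma called none of them. Dkk3 and Myh6 had an unadjusted limma p under 0.05, where 8.74% of all genes did. As Myh6 was tested only through its control values, its place in these counts is a description. The summed level of the atrial list was 129.35 to 187.02 TPM in the controls and 70.79 to 92.21 TPM in Prdm16SMKO. Most of that sum was the secreted Wnt pathway protein Dkk3, whose log2 fold change was -1.02 (limma adjusted p = 0.0638). The atrial light chain gene Myl4 was 8.23, 13.57 and 8.58 TPM in the controls and 11.50, 8.46 and 7.87 TPM in Prdm16SMKO, so the groups overlapped. Of the 10 tested general heart genes 8 were higher in Prdm16SMKO, where 8552 of all 15775 genes tested were. Corin reached the expression minimum only through Prdm16SMKO (mean 0.783 TPM, 0.427 TPM in the controls). Tnni3k reached it only through the controls (mean 0.84 TPM, 0.247 TPM in Prdm16SMKO). The place of both in this count is a description. Among the 10, limma called 2, against 0.355% of all genes. Without Prdm16SMKO library 1, 6 were higher and 4 lower, and the same 2, Tnnt2 and Ankrd1, were called. Tnnt2, the cardiac troponin T, was 5.76, 11.85 and 6.08 TPM in the controls and 345.59, 320.16 and 303.84 TPM in Prdm16SMKO (log2 fold change 5.34, limma adjusted p = 1.5e-04). Ankrd1, a stretch-responsive gene of muscle, was 6.40, 6.67 and 4.74 TPM against 36.87, 39.34 and 27.93 TPM (log2 fold change 2.45, limma adjusted p = 0.00267). Both were high in all 3 Prdm16SMKO libraries. Mybpc3, another sarcomere gene of the heart, was 0 to 0.03 TPM in the controls and 0.27 to 0.38 TPM in Prdm16SMKO.

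A list of sarcomere genes shared by heart and skeletal muscle, which also held the regulators Myocd, Mef2c and Srf, gave no common direction. Of 36 listed genes in the table, 23 were tested, and limma called 0. Among these 8 were higher and 15 lower in Prdm16SMKO, with a median log2 fold change of -0.12. Of the 15, Myom2 reached the expression minimum only through the controls (mean 0.92 against 0.22 TPM), so its direction is a description. An unadjusted limma p under 0.05 was reached by 5 of the 23 and by 8.74% of all genes tested. Without Prdm16SMKO library 1 8 were again higher and 15 lower, with a median of -0.26. The most abundant were the tropomyosins Tpm2 (log2 fold change -0.38) and Tpm1 (-0.14), which VSMCs also use, then Myom1 of the M-band (-0.36) and Tcap of the Z-disc (0.58), with limma adjusted p-values of 0.523 to 0.942. Tcap was 182.71, 216.41 and 122.33 TPM in the controls and 300.18, 263.33 and 206.18 TPM in Prdm16SMKO. The giant sarcomere protein gene Ttn was 1.60, 0.16 and 0.05 TPM in the controls and 0.96, 0.07 and 0.09 TPM in Prdm16SMKO, high in library 1 of each group as Mylpf was. Of 17 muscle energy genes 14 were tested, 6 higher and 8 lower, with a median of -0.12 and 0 called (1 at an unadjusted p under 0.05). Slc25a4, the mitochondrial ADP/ATP carrier of muscle, had a log2 fold change of 0.02 and the lactate dehydrogenase gene Ldhb of 0.10 (limma adjusted p-values 0.993 and 0.974). The respiratory chain genes Cox7a1 and Cox8b, shared by muscle and brown fat, were highest in Prdm16SMKO library 3, at 69.96 and 178.97 TPM, the library with the highest brown adipocyte sum.

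The smooth and non-muscle relatives exceeded the members by a wide margin. Acta2 was 6974.64 to 13019.92 TPM in the controls and 5256.48 to 8099.90 TPM in Prdm16SMKO, which is 1368 to 9414 times Actc1 in the controls and 439 to 1139 times in Prdm16SMKO. Actc1 per 10000 TPM of Acta2 was 1.06, 3.8 and 7.31 in the controls and 8.78, 11 and 22.8 in Prdm16SMKO, so the groups remained apart when expressed per unit of smooth muscle actin. Acta1 on the same scale was 1.09, 0.876 and 1.49 in the controls and 14.9, 0.653 and 0.400 in Prdm16SMKO. Myh11 was 1551 to 2149 times Myh6 in the controls and 2533 to 11939 times in Prdm16SMKO. Acta2 and Myh11 themselves had log2 fold changes of -0.47 (limma adjusted p = 0.765) and -0.23 (limma adjusted p = 0.922).

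Of 18 relatives tested, 6 were higher and 12 lower with a median log2 fold change of -0.18, and 0 were called by limma. Among the 6, Ckmt1 reached the expression minimum only through Prdm16SMKO library 1, so its direction says nothing further. The unadjusted limma p was under 0.05 for 4 of the 18 and for 8.74% of all genes tested. Without Prdm16SMKO library 1, 3 of 17 were higher and 14 lower, with a median of -0.33. The enteric smooth muscle actin Actg2 was 92.47, 138.75 and 89.04 TPM in the controls and 236.26, 198.03 and 151.26 TPM in Prdm16SMKO, without overlap (log2 fold change 0.87, limma adjusted p = 0.235). Among the 6 actins, Actc1 and Actg2 had TPM values that were higher in all Prdm16SMKO libraries than in all controls, as had 7.02% of tested genes, and neither was called. The non-muscle heavy chain Myh10 was 180.93, 235.57 and 152.26 TPM in the controls and 104.82, 101.14 and 89.73 TPM in Prdm16SMKO (log2 fold change -0.92, limma adjusted p = 0.096). The brain-type creatine kinase Ckb was 34.4 to 57.8 times Ckm in the controls and 11.1 to 105 times in Prdm16SMKO. The mitochondrial creatine kinase Ckmt1, typical of neurons, was 4.47 TPM in Prdm16SMKO library 1 and 0 to 0.35 TPM elsewhere. Among the globins, Cygb stood at 82.4 to 106 TPM in the controls and 82.3 to 125 TPM in Prdm16SMKO, far above Mb.

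**Figure D4:**
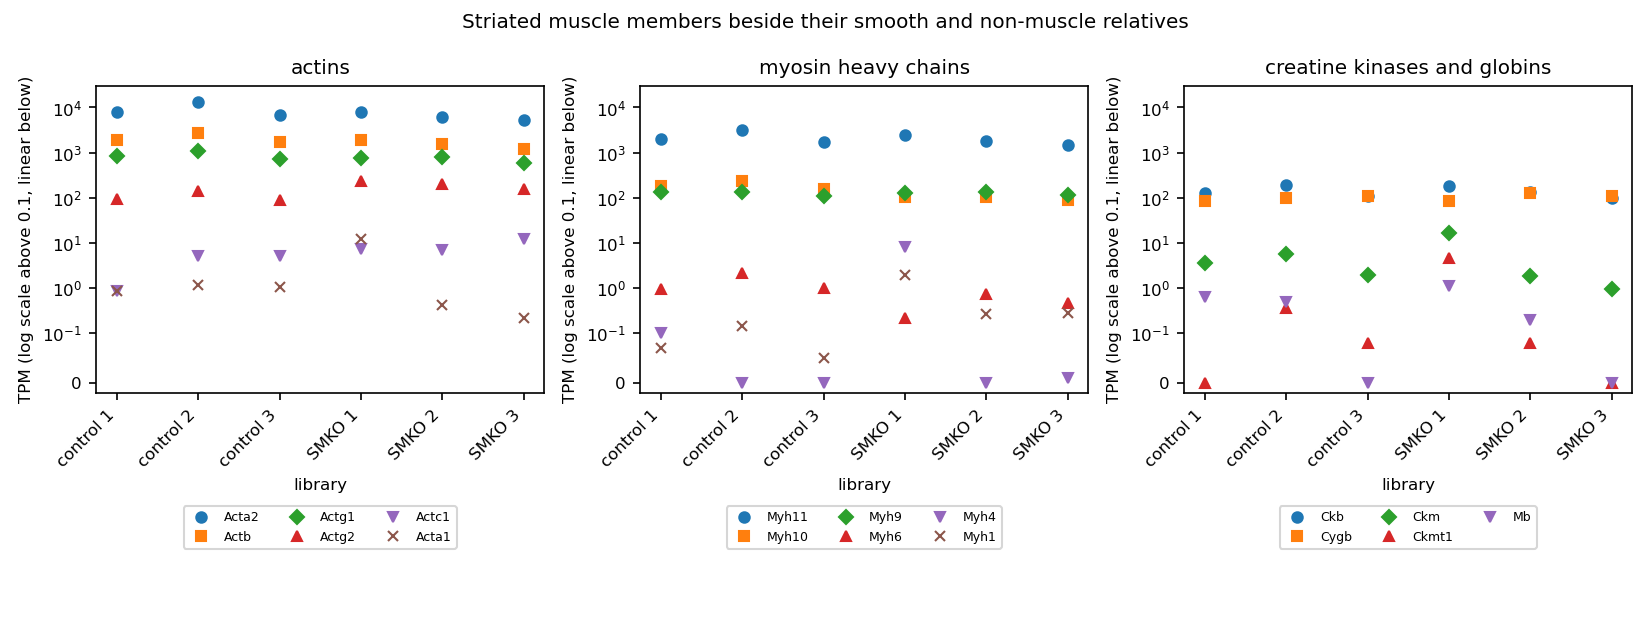
TPM in each library of the actins, the myosin heavy chains, and the creatine kinases with the globins Cygb and Mb, on an axis that is logarithmic above 0.1 TPM and linear below, with Prdm16SMKO shortened to SMKO. Acta2, Myh11, Ckb and Cygb lie at the top at like levels in all libraries, and Acta1, Myh4, Myh1 and Ckm rise to their highest points in Prdm16SMKO library 1.

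The members differed in how alike their patterns were. Likeness was measured as the root mean square difference of log2(TPM + 0.5), centred on each gene's mean, over the 6 libraries. Acta1 lay closest to Myh4 (0.481) and to Ckm (0.501), and Ckm lay at 0.746 from Mylpf, whereas Actc1 and Mylpf (1.92) and Myh4 and Myh6 (1.94) were far apart. Among all tested genes, those close to Acta1 included Cpne9 (0.321), Celf4, Ckmt1 and Caly (0.373). Those close to Ckm included Syt17 (0.178), Gm17146, Amph and 6330403K07Rik (0.362). Several of these, such as the synaptic vesicle gene Amph and the splicing factor gene Celf4, are known from neurons. Their peak in Prdm16SMKO library 1 follows from their choice by likeness to Acta1 and Ckm, and is a description. The 5 closest to Myh4, from Gm47254 (0.0940) to Gm50081 (0.153), with Gm14000, Gm15079 and Gm22662 between them, were at 0 in every library but that one.

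The other members had different neighbours. Closest to Actc1 were Gm15801 (0.333), H19 (0.357), Gm24532, Rps15a-ps4 and Gm35248 (0.469). H19, a noncoding RNA of fetal tissues, was 0.53, 2.63 and 3.96 TPM in the controls and 7.67, 6.67 and 6.31 TPM in Prdm16SMKO, with the same low control library 1 as Actc1. Closest to Myl1 were Tmem179 (0.417), Zfp236, A830018L16Rik, Gm6990 and Tmeff1 (0.505). Zfp236 shared the high values in control library 1 and Prdm16SMKO libraries 1 and 3. Closest to Mylpf were Mrps36-ps2 (0.421), Serp2, Gm28364, AW551984 and Tmem200a (0.507), and closest to Myh6 were 2210407C18Rik (0.130), Pm20d2, Spata18, Slc39a14 and Mrgprh (0.186). These lists describe 6 libraries and carry no test, and a shared pattern is what the genes were picked by.

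**Figure D5:**
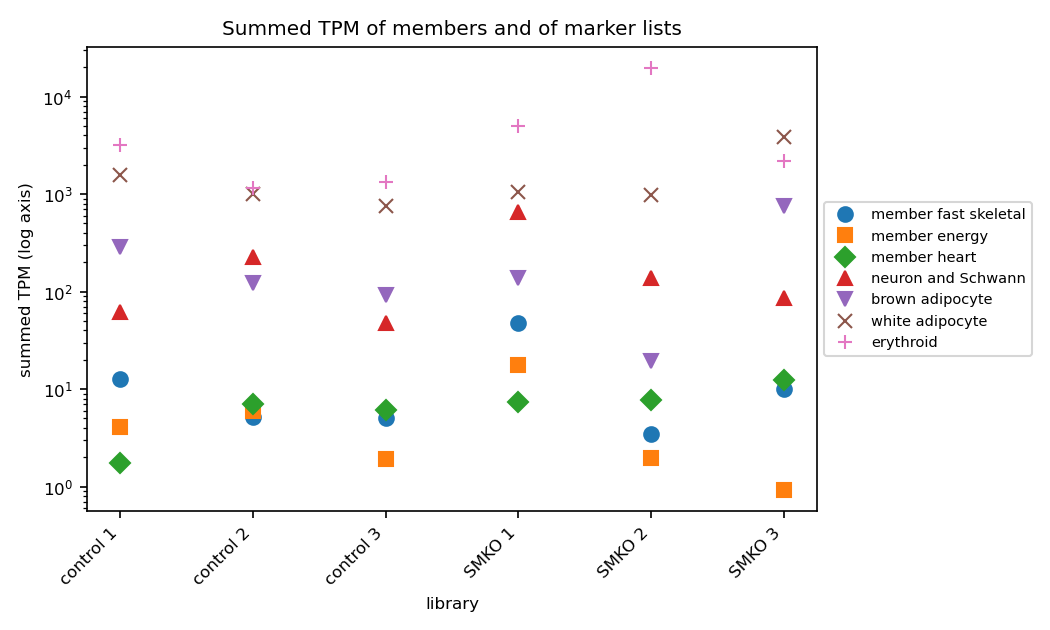
Summed TPM, on a log axis, of the fast skeletal, energy and heart members and of the neuron and Schwann cell, brown adipocyte, white adipocyte and erythroid lists in each library, with Prdm16SMKO shortened to SMKO. The fast skeletal sum (47.57 TPM) and the energy sum (17.67 TPM) are highest in Prdm16SMKO library 1 together with the neuron sum, the heart sum (12.43 TPM) and both adipocyte sums are highest in library 3, and the erythroid sum is highest in library 2.

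The markers of other tissues stood beside the members as follows. Th, the first enzyme of catecholamine synthesis, was 67.56 TPM in Prdm16SMKO library 1, 8.43 TPM in control library 2 and 0 to 0.13 TPM in the other 4. Dbh, which makes noradrenaline, and the neuronal tubulin Tubb3 had the same 2 high libraries, at 84.61 and 86.25 TPM in Prdm16SMKO library 1 and 13.80 and 12.13 TPM in control library 2. In control library 2, Acta1 was 1.14 TPM and Ckm 5.55 TPM, each the highest value after Prdm16SMKO library 1, while Myl1, Mylpf and Myh4 were 2.37, 1.53 and 0 TPM. Acta1 was close to that in control libraries 1 and 3, at 0.85 and 1.04 TPM. Control library 2 was also the highest library for Acta2 and Myh11. The summed level of the fast skeletal members was 47.57 TPM in Prdm16SMKO library 1 and 3.44 to 12.84 TPM in the other 5, that of the energy members 17.67 against 0.92 to 6.02 TPM, and that of the heart members 1.75 to 7.04 TPM in the controls against 7.32 to 12.43 TPM in Prdm16SMKO. The part of nerve or fat RNA in the levels of the members was not tested.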

How the data were processed

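RNA from mouse abdominal aorta (3 control and 3 Prdm16SMKO libraries) was sequenced by the authors as 151 bp read pairs. The submitters' processing notes list bcl2fastq, cutadapt 2.3, FastQC 0.11.8, STAR 2.7.8a, RSEM 1.3.3, MultiQC 1.7 and GRCm38. The authors deposited TPM values per gene, which keep no counts, so the depth behind a single value is unknown and no counting interval is given. The 15775 genes whose average reached 0.5 TPM were tested with limma 3.58.1 in R 4.3.3 (eBayes with trend) on log2(TPM + 0.5), two-sided, adjusted by Benjamini-Hochberg over all of them with calls below 0.05. For single genes the groups were also compared by an exact permutation test of the TPM. Gene positions are from GENCODE M21. Members and lists were chosen with earlier results of these data known. The rule for named genes took all members, Prdm16, the called genes of each list or else its 4 highest by mean TPM, the 5 closest genes of each tested member and the smooth and non-muscle relatives. Some of these are not reported here, and the non-muscle lists are given mostly by their counts. Other genes, such as Atp2a1, Pvalb, Actn3, Ryr1, Myh7, Nppa, Mybpc3, Ttn, Th, Klhl41, Hspb7, Synpo2l, Myzap, Myf5, Myf6 and the fast troponins, were chosen after their values were seen. Alternatives covered the pseudocount, minimum, scaling, trend, array weights, replicate block and each library left out. The procedure was tested on simulated data.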

Additional observations from a re-analysis of the deposited data

How the results depend on the processing

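Of 102 values of tested members under other settings, 93 kept their direction and their side of the threshold. Ckm turned to 0.049 with a pseudocount of 1, to 0.015 with array weights, to 0.30 without control library 2, to 0.35 without Prdm16SMKO library 2 and to 0.69 without Prdm16SMKO library 3. Mylpf turned to 0.07 without control library 1 and to 0.14 without Prdm16SMKO library 3, and Acta1 to -0.90 without Prdm16SMKO library 1. The cause was not tested. Array weights called 1 member, Actc1 (log2 fold change 2.52, limma adjusted p = 0.0378), and every other setting 0. Leaving out each library in turn gave 0 to 0 members called, with log2 fold changes of 0.69 to 1.73 for Actc1 (limma adjusted p 0.453 to 0.737) and -1.10 to -0.64 for Myh6 (0.575 to 0.781). For the others the same ranges were -0.90 to 1.17 for Acta1, -1.10 to 0.69 for Ckm, 1.24 to 1.97 for Myh4, 0.37 to 1.87 for Myl1 and -1.43 to 0.14 for Mylpf.

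The count of called genes, 56, became 10 without a minimum, 153 with median-of-ratios scaling (39.2% of them higher, against 51.8%), 129 with quantile normalization (35.7% higher), 33 without the trend, 494 with array weights, 4 with the replicate block and 5 to 61 with a library left out (5 without control library 2, 17 without control library 1 or 3, 28 without Prdm16SMKO library 2). A minimum of 2 TPM gave 77, with 40.3% higher. Replicate numbers did not pair the libraries (correlations of same-numbered deviations -0.13, -0.11 and 0.02), and the block called 0 members. Myh6 and Myh4 could not be fitted under the 2 TPM minimum, nor Myh4 without Prdm16SMKO library 1. The TPM values keep no depth, so for members near or below 1 TPM the counting error is unknown.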

Other observations

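Outside the 10 members, some listed striated muscle genes did not overlap between the groups. Among the tested genes, 2 of 13 in the fast fibre list and 5 of 23 in the shared sarcomere list were lower in all Prdm16SMKO libraries than in all controls, against 5.76% of all genes tested, and 1 in each list was higher in all of them, against 7.02%. The regulator Srf was among the 5, and the 4 lower genes given here with values were picked with those values known. The small heat shock protein gene Hspb7 was 195.3, 270.32 and 162.34 TPM in the controls and 92.31, 90.51 and 69.52 TPM in Prdm16SMKO (log2 fold change -1.29, limma adjusted p = 0.056). The Z-disc gene Synpo2l was 7.27, 8.38 and 5.52 against 3.19, 3.38 and 2.42 TPM (log2 fold change -1.10, limma adjusted p = 0.095). Cav3, the muscle caveolin, was 21.04, 24.68 and 18.43 against 12.30, 10.99 and 7.53 TPM (log2 fold change -1.04, limma adjusted p = 0.106), and Klhl41 2.26, 3.36 and 1.36 against 1.10, 0.17 and 0.60 TPM (log2 fold change -1.36, limma adjusted p = 0.339). In the other direction, Actn3 of the fast fibre list and Myoz2 of the shared list (0.40, limma adjusted p = 0.664) were higher without overlap. Actn3 reached the expression minimum only through Prdm16SMKO library 1. The troponin Tnnc2 (1.22, limma adjusted p = 0.573) and the heart gene Myzap (0.48, limma adjusted p = 0.724) were also higher without overlap. Counting the called Tnnt2 and Ankrd1, this held for 2 of 7 tested troponins and 3 of 10 tested general heart genes. Apart from Tnnt2 and Ankrd1, no gene named here passed the threshold.

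None of the markers of further cell types listed here was called, and no list was tested as a whole. All 7 macrophage genes had higher means in Prdm16SMKO (median log2 fold change 0.78), as did all 5 erythroid genes (median 1.83). The erythroid sum reached 19567.57 TPM in Prdm16SMKO library 2 against 1142.76 to 4946.77 TPM in the other 5. At an unadjusted limma p under 0.05, 5 of 7 macrophage and 5 of 5 erythroid genes passed, where 8.74% of all genes did. So did 2 of 7 white adipocyte and 3 of 10 VSMC genes, and 0 or 1 in each other list given here. Of the 7 fibroblast genes 6 were higher (median 0.20), of the 7 endothelial genes 6 (median 0.35), of the 7 white adipocyte genes 7 (median 0.99) and of the 7 tested brown adipocyte genes 2 (median -0.14). Of the 10 VSMC genes 3 were higher and 7 lower (median -0.27). The 8 neuron and Schwann cell genes were all higher (median 1.02), but without Prdm16SMKO library 1 they were 4 higher and 4 lower (median 0.11). Without that library the median was 0.43 for fibroblast genes, 0.64 for endothelial genes and -0.46 for VSMC genes.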
